A study of Mus musculus with 8 samples.

Results

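The genes described here encode the AMPA receptor and its best known auxiliary proteins: the pore-forming subunits Gria1, Gria2, Gria3 and Gria4, the transmembrane AMPA receptor regulatory proteins (TARPs) Cacng2, Cacng3 and Cacng8, and the cornichons Cnih2 and Cnih3. They were taken by name and by no cut on their values, though earlier results of these data were known. All 9 were present among the 22609 gene rows of the table and passed the filter on low values. The tissue was the anterior cingulate part of the medial prefrontal cortex (mPFC), taken on both sides of the brain from B6.SJL mice at an age of 3 months, and total RNA was sequenced. The group labelled Contextual fear conditioning has 4 biological replicates, from mice that explored a chamber for 3 min, received 2 foot shocks of 0.8 mA (each 2 s long, 30 s apart) and stayed another 15 s. The group labelled Context control exposure has 4 biological replicates from mice handled in the same way without shocks, and both groups were killed 1 h after training. Whether a replicate is 1 animal or a pool is not stated. The tissue is a bulk dissection, and a change in the number of cells of a type cannot be told apart from a change in RNA per cell.

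AMPA receptors carry most of the fast excitatory current at cortical synapses. Each is an assembly of GluA subunits encoded by the Gria genes, and the number and make-up of receptors at the synapse change during synaptic plasticity, a process long studied in fear learning. TARPs and cornichons bind the assembled receptor, help it to reach the cell surface and the postsynaptic density, and slow its closing.

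The 4 subunit genes share the codon that faces the channel pore, known as the Q/R site. In Gria2 transcripts the enzyme encoded by Adarb1 edits this codon from glutamine to arginine, and receptors with the edited subunit pass very little calcium. The genomic stretches around it, read from the coding strand of the GENCODE annotation on GRCm38, are shown because of this editing in Gria2 transcripts. Capitals mark the Q/R codon.
Gria1: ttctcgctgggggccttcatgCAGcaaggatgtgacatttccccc
Gria2: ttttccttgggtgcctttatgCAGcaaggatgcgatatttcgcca
Gria3: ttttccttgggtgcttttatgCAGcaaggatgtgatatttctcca
Gria4: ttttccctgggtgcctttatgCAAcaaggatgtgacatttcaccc
The stretch of Gria1 lies at chr11:57243073-57243117 on the plus strand, in coding exon 11 of its 16 exons. That of Gria2 lies at chr3:80706890-80706934 on the minus strand, in exon 11 of 16. That of Gria3 lies at chrX:41610244-41610288 on the plus strand, in exon 11 of 16, and that of Gria4 at chr9:4464116-4464160 on the minus strand, in exon 12 of 17. Against Gria2, Gria3 differed in 3 of the 45 bases, Gria4 in 6 and Gria1 in 9. All 4 genes encode glutamine there in the genome, Gria4 with the other glutamine codon. Editing itself was not measured, since the table gives 1 value per gene.

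The TARPs share their last residues, which bind the scaffold protein PSD-95 (gene Dlg4) and anchor the receptor at the synapse. The ends of the 3 coding sequences are shown for that reason, with the codons of this motif in capitals and the stop codon last.
Cacng2: acagccaaccgccggACCACGCCCGTAtga
Cacng3: ccggccaacagacgtACCACGCCTGTCtga
Cacng8: acgctcaacaggaaaACCACGCCCGTGtag
They lie at chr15:77995149-77995178 (minus strand), chr7:122768817-122768846 (plus strand) and chr7:3415576-3415605 (plus strand) of GRCm38, each in exon 4 of 4.

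The members are near relatives, which bears on how reads could be shared. Over their aligned coding sequence the subunit genes were between 67.8% identical (Gria1 and Gria4) and 72.8% identical (Gria2 and Gria4). The longest run of identical bases was 56, between Gria2 and Gria3. The TARP genes were 65.9% to 72.2% identical with no shared run above 23 bases, and Cnih2 and Cnih3 were 77.2% identical with a run of 19. How reads that fit more than 1 gene were counted is not given in the sources used here. The flip and flop splice forms of the subunits are not separated either.

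Recovered gene reads ranged from 1992452 to 3565356 per sample, and replicate libraries within a group all differed by more than sampling noise (chi-square per degree of freedom of 2.5 to 23.6 over 12 pairs). Markers fitted the labelled tissue: all 6 excitatory neuron markers were present, with a summed level of 4337 to 6025 in context controls and 4508 to 6430 after conditioning. Other cell types and cortical layers varied between the groups, with no marker at 0 in all samples. Limma called no single marker, as it called 0 of the 14704 genes tested. Its unadjusted p was under 0.05 for 3 of 8 astrocyte, 2 of 6 deep layer, 2 of 7 oligodendrocyte precursor and 2 of 6 endothelial and mural markers. The same held for 1 of 9 interneuron and 1 of 6 striatal markers, and for 2.7% of all genes. Neu4 (precursor) and Gja1 (astrocyte) were lower without overlap, where 1.92% of all genes separated the groups. The 6 deep layer markers summed to 741 to 1219 in controls and 801 to 1511 after conditioning (6 of 6 above the control mean, median log2 change 0.50), and the 5 upper layer markers to 1728 to 2288 and 1208 to 2203 (0 of 5 above). The 8 oligodendrocyte markers summed to 1820 to 8289 in controls and 1701 to 3457 after conditioning, with the highest sum in context control replicate 3, and the 6 endothelial and mural markers to 932 to 1230 and 652 to 963. The 8 astrocyte markers summed to 14184 to 19266 and 14999 to 16400, and the 6 microglia markers to 928 to 1373 and 854 to 1056. None of these glial and vascular markers had a log2 mean above that of the controls. For these and the layer counts, the share above over all genes tested was 51.8%. The part of cell composition in the members' values was not tested.

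The unit is a gene's reads divided by a per-library factor (scaled reads), and changes are differences of log2(value + 1) between the group means. No member passed the threshold after fear conditioning by limma (adjusted p = 0.9998 for each), against a background of 0% of the 14704 genes tested. The count tools run on whole reads, edgeR and DESeq2, called 0 members and 0 genes as well, with 385 and 340 genes at an unadjusted p under 0.05. At that unadjusted limit limma had 0 of the 9 members, where 2.7% of all genes (397) lay under it, 1.18% higher and 1.52% lower after conditioning. That count over all genes was 251 without fear conditioning replicate 3, 267 without context control replicate 3 and 804 without fear conditioning replicate 4, and 0 members were in it each time. No member separated the groups completely, which 1.92% of all genes did, 0.979% with conditioned samples higher and 0.939% with them lower. Of the 9 members 6 had a mean above that of the controls on the log2 scale and 3 below it, with a median log2 change of 0.08, where 51.8% of all genes lay above 0 and their median was 0.01. The 539 genes with mean values of 1000 to 3000, the range of Gria1 to Gria3, had a median of 0.08 themselves, and 79.2% of them lay above 0.

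**Figure D1:**
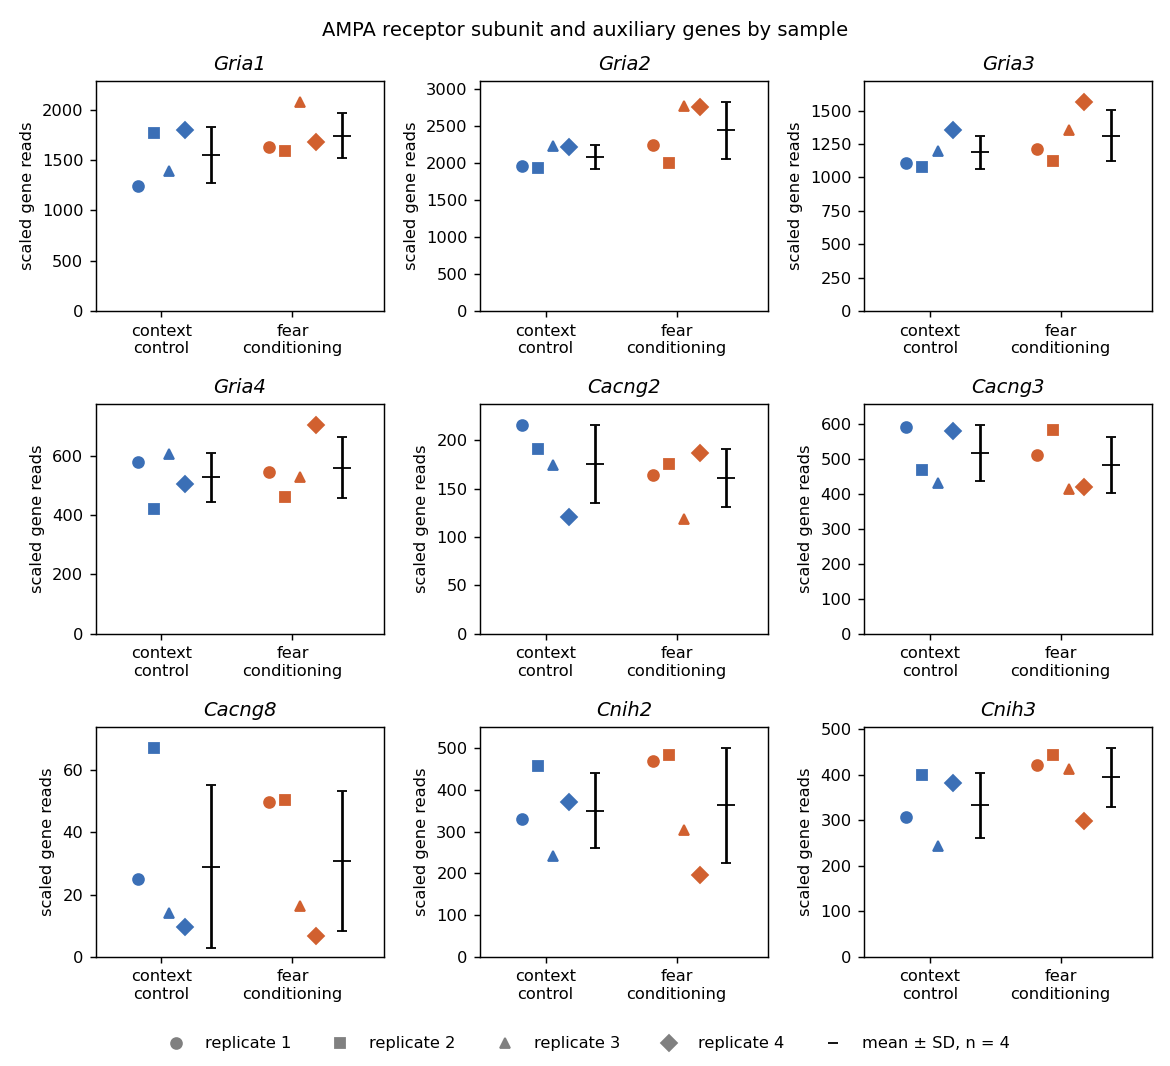
Scaled gene reads (vertical axis, from 0) of the 9 genes in each sample, context control in blue and fear conditioning in orange, with the replicate number as the symbol and the mean ± SD (n = 4) as a bar. The groups overlap in every panel, and Cacng8 spans 6.72 to 67.2 across the samples.

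Gria1 encodes GluA1, the subunit whose delivery to synapses accompanies long-term potentiation. In the order of replicates 1 to 4, used throughout, controls read 1244, 1771, 1388 and 1793 and conditioned samples 1627, 1584, 2076 and 1679.9. The highest sample was conditioned and the lowest a control, and the groups overlapped. The means were 1549 ± 275 and 1742 ± 226 (SD, n = 4), a log2 change of 0.18 with a 95% interval of -0.16 to 0.52.

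Gria2 encodes GluA2, the subunit that carries the edited codon printed above. It stood at 1957, 1933, 2238 and 2216 in controls and at 2247, 2006, 2779 and 2755 after conditioning. Only conditioned replicate 2 lay within the range of the controls, the other 3 lying above all of them. The means were 2086 ± 163 and 2447 ± 383 (SD, n = 4). The log2 change was 0.22 (limma interval -0.09 to 0.53, unadjusted p = 0.149), so that a higher level of more than 1.44-fold lay outside the interval. Conditioned samples were above the control of the same replicate number in 4 of 4 comparisons, by 0.05 to 0.31 log2. The same held for 5.57% of all genes, and 5.43% were below in 4 of 4. After the GC correction described below it was above in 3 of 4, with a difference of -0.13 in replicate 4. With the replicate number as a block the unadjusted p was 0.0855 and the adjusted p 0.997.

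Gria3 encodes GluA3, which forms receptors with GluA2 and, among the 4 genes, is the X-linked one. Controls read 1109.6, 1079.8, 1199.9 and 1357, and conditioned samples 1211, 1122, 1354 and 1565. It too was above the same-numbered control in 4 of 4 comparisons, by 0.06 to 0.21, and the groups overlapped. After GC correction it was above in 3 of 4, with a difference of -0.16 in replicate 4. The log2 change was 0.14 (interval -0.17 to 0.45, limma).

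Gria4 encodes GluA4, a subunit that in cortex is known mainly from parvalbumin interneurons and glial precursors. The values were 579.7, 422, 606 and 505 in controls and 545, 460.3, 527 and 704 after conditioning. A single conditioned sample, replicate 4, was above all controls, and after GC correction none was. The log2 change was 0.08 (interval -0.29 to 0.45), and it was -0.04 without fear conditioning replicate 4 and -0.02 without context control replicate 2. The summed interneuron markers, 9 in all, were 3114 to 3542 in controls and 3315 to 3729 after conditioning, with fear conditioning replicate 4 the highest. Of these 9 markers 4 were above and 5 below the control mean on the log2 scale. Gad1 and Gad2 made up most of the sum, and Pvalb, the marker of parvalbumin cells, was 154 ± 39.9 in controls and 137 ± 18.0 after conditioning (SD, n = 4), with 146 in fear conditioning replicate 4. The 7 precursor markers summed to 752 to 1059 and 624 to 776, with 0 above and 7 below the control mean on the log2 scale. Of all genes tested, 51.8% were above. The part of either cell type in the Gria4 values was not tested.

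Cacng2 encodes stargazin, the founding TARP. It was measured at 216, 191, 174 and 121 in controls and at 164, 175, 119 and 187 after conditioning. The lowest sample of each group was much alike, and the groups overlapped over most of their range. The means were 175 ± 40.3 and 161 ± 29.8 (SD, n = 4), a log2 change of -0.11 (interval -0.58 to 0.37). It was 0.0009 without context control replicate 1 and 0.03 without fear conditioning replicate 3.

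Cacng3, the TARP gene with the highest value here, stood at 591, 470.1, 432 and 581 in controls and at 512, 584, 414 and 421 after conditioning. High and low samples occurred in both groups, and the log2 change was -0.10 (interval -0.47 to 0.26).

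Cacng8 encodes TARP gamma-8, best known from hippocampus and forebrain. Its values were 24.9, 67.2, 14.1 and 9.66 in controls and 49.7, 50.4, 16.4 and 6.72 after conditioning. These rest on 6 to 50 reads per library. In both groups replicates 1 and 2 were the higher samples and replicates 3 and 4 the lower ones, with the groups overlapping throughout. The log2 change was 0.07 with an interval of -1.39 to 1.54, which spans from 0.382 to 2.90 times the control level, so that smaller changes were not detectable at this depth and spread. It ranged from -0.30 to 0.63 when samples were left out in turn, and was below 0 without context control replicate 3 (-0.13) or 4 (-0.30) or fear conditioning replicate 1 (-0.28) or 2 (-0.29).

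Cnih2 encodes the cornichon that, with gamma-8, shapes receptors of forebrain pyramidal cells. Controls read 329.7, 458, 242 and 370.2, and conditioned samples 469.5, 483, 303 and 196. Both the 2 highest samples and the lowest sample were conditioned. The log2 change was -0.0016 (interval -0.61 to 0.61), and with fear conditioning replicate 4 left out it was 0.26.

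Cnih3, the other cornichon gene, was at 306, 400.2, 243 and 381 in controls and at 423, 444, 413 and 299 after conditioning. Of the conditioned samples 3 were above every control and replicate 4 was below 3 of the controls. After GC correction only replicate 3 was above every control. Its means were 333 ± 72.3 and 395 ± 65.0 (SD, n = 4). The log2 change of 0.26 was the highest of the members, with an interval of -0.16 to 0.68 and an unadjusted p of 0.209 in limma.

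**Figure D2:**
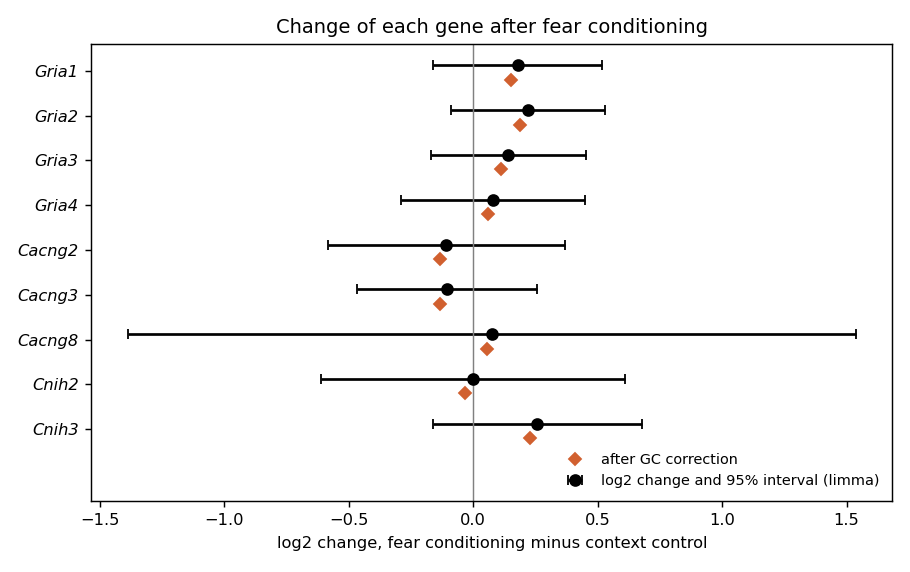
Log2 change of each gene after fear conditioning (horizontal axis), with the 95% interval from limma in black and the change after GC correction as orange diamonds. Every interval spans 0, and the interval of Cacng8, -1.39 to 1.54, is the widest.

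The precision of these estimates differed among the members. The interval reached 0.31 log2 to either side for Gria2 and Gria3, 0.34 for Gria1, 0.36 and 0.37 for Cacng3 and Gria4, 0.42 for Cnih3, 0.48 for Cacng2, 0.61 for Cnih2 and 1.46 for Cacng8, beside a median of 0.62 over all genes tested. The 3 most abundant subunit genes were therefore among the better measured genes, with 97.3% to 99.3% of all tested genes below them in mean value.

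The spread of Cacng8 and Cnih2 followed a property of the libraries. GC content, the share of G and C bases in the longest transcript, was 65.1% for Cacng8 and 62.3% for Cnih2, higher than in 99.6% and 98.6% of tested genes. It was 36.8% for Gria2 and 39.8% for Gria3, where only 0.97% and 5.40% of genes were lower. The GC term of a library is the median log2 deviation of its genes in the highest decile of GC content from their means over all samples, less that of the lowest decile, counting genes whose average exceeded 5 on the log2 scale. This term was 0.32, 0.59, -0.68 and -0.24 in the controls and 0.71, 0.85, -0.33 and -1.21 in the conditioned samples, so both the highest and the lowest terms were in conditioned libraries. Described over the 8 samples, which share this term by library, Cacng8 (r = 0.92, Spearman rho = 0.86) and Cnih2 (r = 0.95, rho = 0.98) were high where it was high. Cnih3 (r = 0.67, rho = 0.81) and Cacng3 (r = 0.63, rho = 0.67) were too, to a lesser degree. Gria3 (r = -0.81, rho = -0.60), Gria4 (r = -0.76, rho = -0.69) and Gria2 (r = -0.74, rho = -0.55) ran the other way. Gria1 (r = -0.11, rho = -0.19) and Cacng2 (r = 0.19, rho = 0.14) followed it little.

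**Figure D3:**
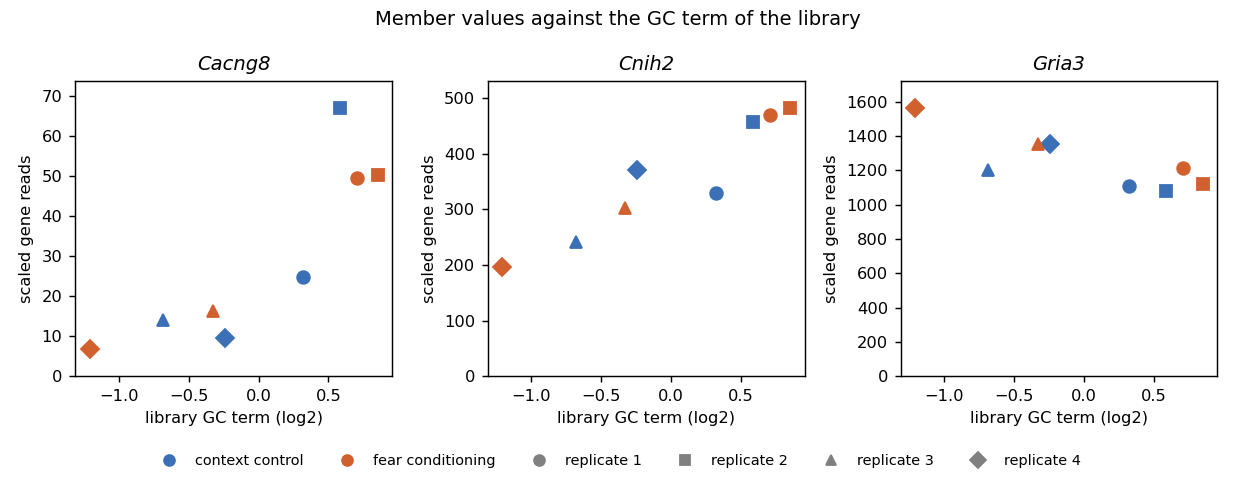
Scaled gene reads (vertical axis, from 0) of Cacng8, Cnih2 and Gria3 against the GC term of each library (horizontal axis, log2), with context control in blue, fear conditioning in orange and the replicate number as the symbol. Cnih2 is lowest (196) in the library with the lowest term, -1.21, and highest (483) in the library with the highest term, 0.85, while Gria3 is highest (1565) in the former.

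Subtracting a smooth curve on GC content from each library narrowed the spread of most members. The within-group SD on the log2 scale went from 1.25 to 0.62 for Cacng8, from 0.51 to 0.23 for Cnih2, from 0.30 to 0.19 for Cnih3, from 0.25 to 0.16 for Gria4 and from 0.18 to 0.13 for Gria3. For Cacng2 it was 0.33 and 0.34. The highest Cnih2 value went from 2.47 to 1.55 times the lowest, and in fear conditioning replicate 4 the Gria2 value went from 2755 to 2008. The corrected changes were 0.19 for Gria2, 0.15 for Gria1, 0.11 for Gria3, 0.06 for Gria4, 0.23 for Cnih3, -0.03 for Cnih2, 0.05 for Cacng8 and -0.13 for both Cacng2 and Cacng3. None of the 9 passed by limma after correction, with adjusted p between 0.931 and 0.996.

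Levels of different genes were compared per kilobase, and the choice of length changed the order. On the longest annotated transcript Gria1 was highest, at 297 ± 46.0 scaled reads per kb (SD over 8 samples), followed by Cnih2 (265 ± 80.5), Gria3 (240.1 ± 31.7), Gria2 (219 ± 32.2), Cacng3 (180.3 ± 27.6), Cnih3 (136 ± 26.9), Gria4 (99.9 ± 16.2), Cacng2 (30.6 ± 6.11) and Cacng8 (15.8 ± 11.96). Neighbours in this order overlapped across samples in every case but Gria4 and Cacng2, where Gria4 was higher in 8 of 8 samples. Gria1 exceeded Cnih2 in only 4 of 8 samples. On the coding length, Gria2 stood first at 855 ± 126 scaled reads per kb and Cacng8 last at 23.5 ± 17.8. Neighbours in that order overlapped except for Gria3 (469 ± 61.8) over Gria4 (200.7 ± 32.6) and Cacng2 (173 ± 34.6) over Cacng8. The longest Gria2 transcript has 10371 bases, of which 2652 are coding in the longest coding form, while that of Gria1 has 5546 and 2724. Which transcript ends were in use in this tissue is not recorded in a table by gene.

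The make-up of the subunit transcripts overlapped between the groups on either length. As shares of the summed Gria1 to Gria4 level per coding kb, Gria2 held 39.5% ± 1.90 in controls and 40.7% ± 1.16 after conditioning (SD, n = 4), with all 8 samples between 37.6% and 41.7%. Gria1 held 28.4% ± 4.12 and 28.4% ± 2.64, Gria3 22.3% ± 1.03 and 21.8% ± 1.33, and Gria4 9.83% ± 1.83 and 9.13% ± 1.13. Per kb of the longest transcript Gria2 held 25.0% ± 1.47 and 26.0% ± 0.915, below Gria1 at 34.6% ± 4.67 and 34.8% ± 3.18. The ratio of Gria1 to Gria2, which does not depend on the length used except by a constant, was -0.44 ± 0.27 log2 in controls and -0.49 ± 0.16 after conditioning. It was nearest to 0 in context control replicate 2 (-0.13) and lowest in fear conditioning replicate 4 (-0.71), and the groups overlapped. Among the TARPs, Cacng3 held 72.9% ± 6.71 and 72.9% ± 2.99 of the summed level per coding kb of the 3 genes.

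**Figure D4:**
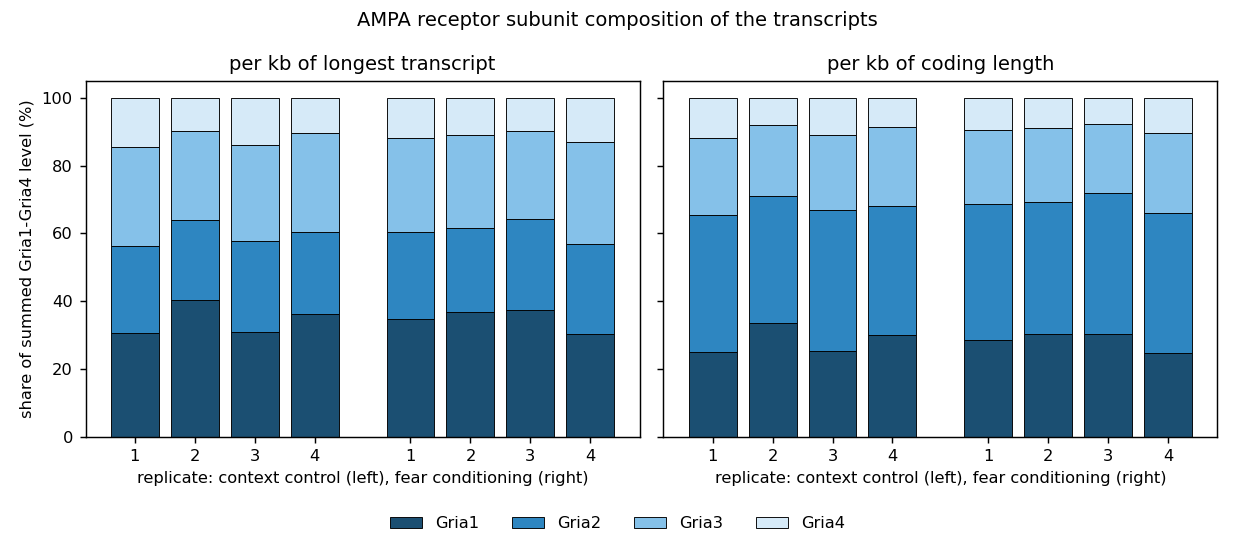
Share of the summed Gria1 to Gria4 level (vertical axis, percent) held by each subunit gene in each sample, per kb of the longest transcript at the left and of the coding length at the right, with the 4 context controls before the 4 conditioned samples in each panel. The Gria2 share changes with the length used, from about 25.5% to 40.1% over all samples, while the bars of the groups look alike within each panel.

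The balance of the cornichons overlapped between the groups, and its pattern over samples changed with GC correction. The log2 ratio of Cnih2 to Cnih3 was 0.11, 0.19, -0.0060 and -0.04 in controls and 0.15, 0.12, -0.44 and -0.61 after conditioning. Conditioned replicates 3 and 4 lay below all controls and replicates 1 and 2 within them. On GC-corrected values it was -0.06, -0.18, 0.33 and 0.15 in controls and -0.30, -0.41, -0.22 and 0.12 after conditioning. Conditioned replicate 4 then lay within the controls and the other 3 below all of them. The SD was 0.11 in controls and 0.39 after conditioning before the correction, and 0.23 in both groups after it.

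Genes whose level over the 8 samples was most like that of a subunit gene were sought among those with a mean of at least 100, 6231 compared for each subunit. For Gria1 these were Nov (r = 0.97, rho = 0.95), Nap1l5 (r = 0.97, rho = 0.88) and Syt1 (r = 0.95, rho = 0.93), which encodes a calcium sensor of vesicle release. For Gria2 they were Gmps (r = 0.98, rho = 0.83), Fam169a (r = 0.98, rho = 0.83) and Aak1 (r = 0.98, rho = 0.90). For Gria3 they were Slitrk3 (r = 0.99, rho = 0.98), a synaptic adhesion gene, Lmbr1 (r = 0.98, rho = 0.90) and Ttc19 (r = 0.98, rho = 0.88). For Gria4 they were Nup205 (r = 0.98, rho = 1.0), Mphosph8 (r = 0.97, rho = 0.98) and Usp8 (r = 0.96, rho = 0.98). These are the highest of many values over the same 8 libraries and are given as a description.

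Other proteins of the AMPA receptor were taken from 5 lists with 45 genes, of which 44 were tested. None passed over all genes by limma, 0 lay at an unadjusted p under 0.05 and 0 separated the groups. Of the 44, 31 were above and 13 below the control mean on the log2 scale. Over all genes tested, 2.7% lay under that unadjusted p, 1.92% separated the groups and 51.8% were above. Among genes with mean values of 1000 to 3000, a range that holds some of these partner genes, 79.2% were above. Of the other auxiliary subunits, 6 were above and 5 below (median log2 change 0.04), among them Shisa6 (65.6 ± 21.6 and 78.5 ± 22.5), the TARP gene Cacng5 (62.2 ± 12.1 and 69.9 ± 17.7), Gsg1l (282 ± 66.9 and 295 ± 36.4) and Shisa9, which encodes CKAMP44 (434 ± 65.9 and 452 ± 88.8; SD, n = 4 throughout this paragraph). Of the 6 genes for assembly in the endoplasmic reticulum, 4 were above and 2 below (median 0.04). Frrs1l, whose product aids receptor biogenesis, was 966 ± 135 and 1134 ± 154, Cpt1c 196 ± 56.1 and 243 ± 97.8, and Abhd12 956 ± 146 and 893 ± 81.2.

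The 16 genes of intracellular binding and trafficking had 13 above and 3 below (median 0.12). Over all genes tested 51.8% were above, and 79.2% of those with mean values of 1000 to 3000. The scaffold gene Grip2 was 39.2 ± 21.2 and 50.2 ± 15.0 (SD, n = 4), its relative Grip1 39.4 ± 15.2 and 51.0 ± 25.6, and Pick1, whose product binds the tail of GluA2, 78.0 ± 38.5 and 94.2 ± 48.2. Syt3 was 78.9 ± 30.8 and 112 ± 55.6, Nsf, an ATPase that also binds GluA2, 2764 ± 509.96 and 3080 ± 416, and Dlg4, which encodes PSD-95, 1546 ± 369 and 1679.9 ± 690.2. The SD of Dlg4 after conditioning exceeded the difference of its means several times over. Extracellular organisers, 8 in all, had 5 above and 3 below (median 0.10). Nptx1, a pentraxin that gathers receptors, stood at 1227 ± 232 and 1476 ± 278, the activity-induced Nptx2 at 260.0 ± 29.6 and 291 ± 112, Nrg3 at 236 ± 54.1 and 276 ± 61.3, and Nrn1 at 923 ± 133 and 798 ± 103.

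The 3 genes of RNA editing enzymes were nearly level between the groups. Adarb1, the editor of the Gria2 codon, read 693, 572, 584 and 479.6 in controls and 637, 736, 506 and 588 after conditioning, a log2 change of 0.08 (limma interval -0.27 to 0.43). High and low samples occurred in both groups. Adar stood at 879 ± 144 and 896 ± 243 and Adarb2, whose product has no known editing activity, at 31.9 ± 7.10 and 32.1 ± 6.84 (SD, n = 4).

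**Figure D5:**
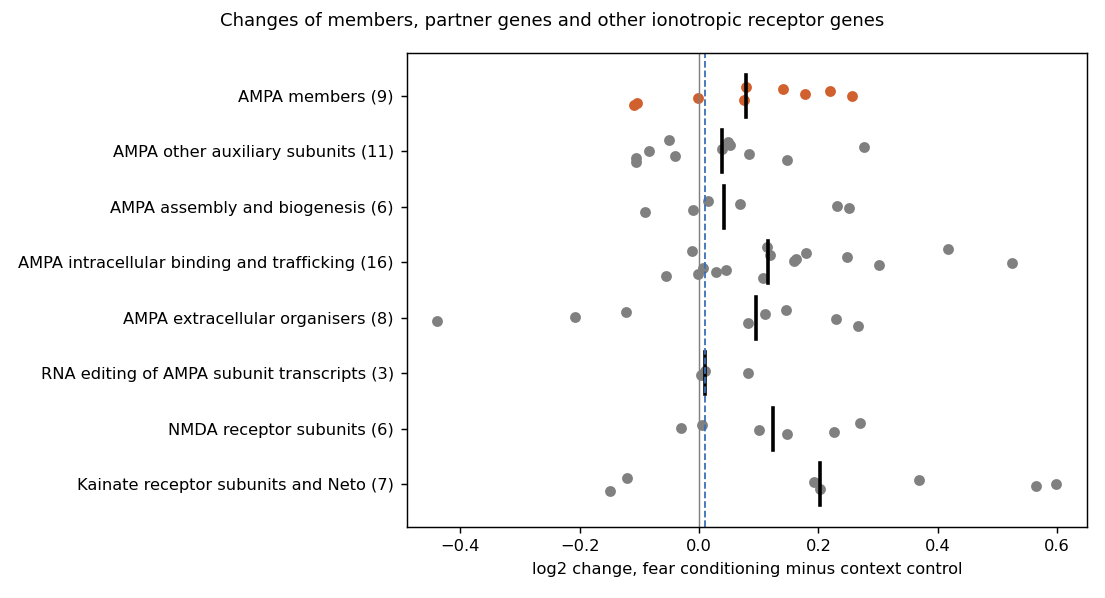
Log2 change of each tested gene (points, horizontal axis) by list, with the number tested in brackets, the list median as a black bar and the median of all tested genes, 0.01, as a dashed line. The 9 AMPA receptor genes lie between -0.11 and 0.26, and the kainate receptor list reaches 0.60.

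The other ionotropic glutamate receptors are given beside these, and no difference between families was tested. Of 6 tested NMDA receptor genes, whose receptors admit calcium and trigger plasticity, 5 were above and 1 below the controls (median log2 change 0.12), with Grin1 at 471 ± 109 and 542 ± 204 and Grin2a at 105 ± 25.4 and 124 ± 31.7 (SD, n = 4). Grin2b was 139 ± 50.2 and 142 ± 18.1, and Grin3a 113 ± 41.1 and 134 ± 36.2. Of 7 kainate receptor and Neto genes, 5 were above and 2 below (median 0.20), and 0 lay at an unadjusted p under 0.05. Over all genes tested by limma, 51.8% were above and 2.7% lay under that unadjusted p. Grik4 had the smallest p of these receptor and partner lists (log2 change 0.60, limma unadjusted p = 0.050, adjusted p = 0.9998), and Neto1, an auxiliary subunit, followed (0.37, unadjusted p = 0.0546). Grik3, another kainate receptor subunit gene, was at 367 ± 183 and 512 ± 136 (SD, n = 4), a log2 change of 0.56 (limma unadjusted p = 0.0837).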

How the data were processed

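The authors deposited 1 table of 22609 genes by 8 samples, named FPKM, and all 8 columns were used. The deposited signal is a gene's read count that the authors divided by a per-library factor, with no length term: dividing a column by its smallest step gave whole reads for 100% of its values, within 0.01 of a read. TopHat, HTSeq and the human build hg19 are named per the submitters' processing notes. The factor's origin, the annotation and the strand setting are not stated there. The design assumed FPKM, and its test was kept because the deposited values are not raw counts.

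The 14704 genes whose mean value was 1 or more were tested on log2(value + 1) with limma 3.58.1 in R 4.3.3 (variance trend, two-sided, Benjamini-Hochberg, threshold 0.05). Alternatives included edgeR 4.0.16 and DESeq2 1.42.0 on recovered reads, and a GC correction (lowess, span 0.3, genes with mean log2 above 5) added after seeing the data. GC content was known for 14530 genes (98.8%). All 3 tools were tested on simulated data that held no GC term of the library, so that test does not cover this property of the libraries. Labels do not say whether RNA of several mice was pooled. Same-numbered samples deviated together (correlation of 0.23 to 0.52 over 9794 genes in each of the 4 pairs). Numbers were treated as pairs in the block fit. Samples of different numbers correlated at -0.68 to 0.74, however, and only 1 of 4 controls correlated best with its own number.

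Sequences and lengths came from GENCODE vM21 (GRCm38), matched by symbol. Older symbols in the table were matched for Cnih1, Syndig1, Frrs1l, Epb41l1, Lamp5 and Drd1, and Shisa8 was not matched. Members, lists and tests were chosen with earlier results of these data known. Besides the 9 members, named genes were the 3 with the smallest p in each partner or receptor list, 9 fixed genes (Adarb1, Nptx2, Shisa9, Grip1, Pick1, Dlg4, Grin1, Grin2a, Grin2b) and the 3 most similar genes per subunit.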

Additional observations from a re-analysis of the deposited data

How the results depend on the processing

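No member passed under any of the 20 alternatives run (2 pseudocounts, 2 filters, 2 scalings, no variance trend, 2 count tools, the replicate block, each of the 8 samples left out, and GC correction with and without the block, the last 2 added after seeing the data). Gria1, Gria2, Gria3 and Cnih3 stayed above 0 and Cacng3 below 0 in all 20, but their size moved. Quantile normalization took Gria1 from 0.18 to 0.080, Gria2 from 0.22 to 0.10 and Gria3 from 0.14 to 0.064. Gria1 was 0.078 without context control replicate 1 and 0.091 without fear conditioning replicate 3, Gria3 0.052 without fear conditioning replicate 4, and Cnih3 0.11 without context control replicate 3. Cacng3 went from -0.10 to between -0.20 and -0.036 as samples were left out, the latter without fear conditioning replicate 3. With samples left out in turn, the log2 change ran from -0.037 to 0.17 for Gria4, -0.28 to 0.030 for Cacng2, -0.30 to 0.63 for Cacng8 and -0.17 to 0.26 for Cnih2, each changing sign. Cnih2 was also above 0 with a pseudocount of 10 (8.72e-05), edgeR (0.040) and DESeq2 (0.043), all well within its standard error of 0.28. The cause was not tested. The replicate block changed no call: 0 genes passed, with 594 at an unadjusted p under 0.05 against 397 without it (782 after GC correction), and Gria2 stayed at 0.22. Over all genes, 0 to 1 passed when samples were left out, the single gene without fear conditioning replicate 4. On coding length in place of the longest transcript, the subunit shares moved from 34.7% to 28.4% for Gria1, from 25.5% to 40.1% for Gria2, from 28.1% to 22.0% for Gria3 and from 11.7% to 9.48% for Gria4, by the construction of that setting. The coding length was taken from GENCODE and not from a protein table. Depth limits Cacng8 most, at 6 to 50 reads per library.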

Other observations

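The members did not vary together as a block. Over the 36 pairs of members, 16 had a correlation above 0 across the 8 samples and 20 below, and 0 passed after adjustment over the pairs (8 at an unadjusted exact permutation p under 0.05). By r the closest pair was Gria2 and Gria3, with r = 0.89 (exact permutation p = 0.0030, adjusted p = 0.0933) and rho = 0.81 (p = 0.0218, adjusted p = 0.251). This pair had r = 0.82 without the 2 samples farthest from the median of Gria2. Gria4 and Cnih2 ran in opposite directions, with r = -0.86 (exact permutation p = 0.0060, adjusted p = 0.0933) and rho = -0.76 (p = 0.0368, adjusted p = 0.265) and r = -0.73 without the 2 samples farthest from the median of Gria4. Cacng8 and Cnih2 had r = 0.85 (exact permutation p = 0.0090, adjusted p = 0.0933) and rho = 0.79 (p = 0.0279, adjusted p = 0.251). Without the 2 samples farthest from the median of Cacng8, their r was 0.73. All these pairs share their libraries, and the GC terms of those libraries move with the same genes. On GC-corrected values, a setting added after seeing the data, 11 of the 36 correlations changed sign and 0 passed after adjustment. Cacng8 and Cnih2 then had r = -0.68 (exact permutation p = 0.0622, adjusted p = 0.249) and Gria4 and Cnih2 r = -0.46 (exact permutation p = 0.245, adjusted p = 0.469). Gria2 and Gria3 had r = 0.84 (exact permutation p = 0.0085, adjusted p = 0.102) and rho = 0.93 (exact permutation p = 0.0022, adjusted p = 0.0804). Without the 2 samples whose corrected values were farthest from the median of Gria2, their r was 0.59. They were no longer the closest pair by r, but they had the highest rho of all pairs. Gria1 and Cnih3 then had r = 0.92 (exact permutation p = 0.0027, adjusted p = 0.0973) and rho = 0.81 (exact permutation p = 0.0218, adjusted p = 0.157). Cacng3 and Cacng8 had r = -0.85 (exact permutation p = 0.0058, adjusted p = 0.102).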
